A study of Mus musculus with 9 samples.

Results

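Nidogens, perlecan, agrin, the Fras/Frem proteins and nephronectin are secreted or shed basement membrane proteins that are neither laminins nor collagens. Their transcripts were followed across skin cells sorted for different levels of CD49f, the integrin α6 subunit that binds laminin. The 8 genes (Nid1, Nid2, Hspg2, Agrn, Fras1, Frem1, Frem2 and Npnt) were chosen by symbol, and each was found on 1 of the 84809 rows of the deposited table, of which 24946 carried a symbol. The data were RNA sequencing of 9 libraries, with 3 replicates in each of 3 gates, named CD49f-neg, CD49f-low and CD49f-high. Every library came from directly isolated mesenchymal cells of newborn mouse dermis, of the strain Krt14 cre;Rosa26-mTmG. That strain carries a Cre recombinase under the keratin 14 promoter, which is active in basal keratinocytes, and a membrane reporter that changes colour after Cre. Neither an age in days nor the animals behind each replicate are given in the labels, so p-values here measure only the spread among these libraries, which may be technical. The labels name no treatment and give the same alleles for all groups.

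Basement membranes are thin sheets built from a laminin network and a type IV collagen network. Nidogens bind both networks. Perlecan and agrin are large proteoglycans whose heparan sulfate chains hold growth factors, and both bind dystroglycan at the cell surface. The Fras1, Frem1 and Frem2 proteins assemble into a complex below the epidermis that anchors it to the dermis during development, and their loss causes blistering in the embryo. Nephronectin is a ligand of the integrin that contains the α8 subunit. In skin it is known from the basement membrane of the hair follicle, where the arrector pili muscle attaches.

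Levels are FPKM (fragments per kilobase of transcript, scaled to the mapped fragments of the library), a value per length that allows genes to be compared. The sequencing depth behind them is unknown. Differences were taken between values of log2(FPKM + 1), where the added 1 shrinks the change of genes near or below 1 FPKM. They were tested with limma over 20523 rows with at least 1 FPKM in at least 3 libraries, and a call means a Benjamini-Hochberg adjusted p, over all rows, under 0.05. All 8 genes were tested, but Frem2 reached 1 FPKM in the CD49f-high libraries only and Npnt in the CD49f-low libraries and 1 CD49f-high library, so the filter itself admitted these genes through the gates where they were high. The 3 comparisons share libraries and are not independent of each other. Each library mixes cell types, and fewer cells of a type cannot be told apart from less RNA per cell.

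The sequences just upstream of the start sites of 3 genes that showed 3 different patterns across the gates are given first: Agrn, high in both positive gates, Frem2, highest in CD49f-high, and Npnt, highest in CD49f-low. They are from RefSeq, build GRCm38.p6, with 250 bases before the start site, written 5′ to 3′ on the strand of the gene. All lie on the minus strand, at chr4:156197489-156197738 (Agrn), chr3:53657356-53657605 (Frem2) and chr3:132950292-132950541 (Npnt). Capitals mark matches, on either strand, to any of 8 short motifs searched.
Agrn: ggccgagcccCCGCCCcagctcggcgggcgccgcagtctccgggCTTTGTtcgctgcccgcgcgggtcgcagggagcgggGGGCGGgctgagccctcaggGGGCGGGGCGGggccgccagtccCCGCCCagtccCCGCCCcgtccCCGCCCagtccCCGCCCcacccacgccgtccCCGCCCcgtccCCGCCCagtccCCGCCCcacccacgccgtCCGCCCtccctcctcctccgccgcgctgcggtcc
Frem2: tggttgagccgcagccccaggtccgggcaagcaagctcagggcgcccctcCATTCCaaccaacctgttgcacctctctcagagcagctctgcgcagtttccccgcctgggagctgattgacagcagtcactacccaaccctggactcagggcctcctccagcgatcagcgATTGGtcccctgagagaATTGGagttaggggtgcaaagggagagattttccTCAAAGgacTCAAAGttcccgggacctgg
Npnt: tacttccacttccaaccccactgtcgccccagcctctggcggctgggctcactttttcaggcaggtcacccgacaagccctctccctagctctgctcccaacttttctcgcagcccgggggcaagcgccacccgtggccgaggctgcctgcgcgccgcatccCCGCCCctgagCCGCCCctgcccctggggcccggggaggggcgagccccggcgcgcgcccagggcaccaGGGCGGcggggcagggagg

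The Agrn window was 83.6% G and C, the Npnt window 74.0% and the Frem2 window 59.6%, against a median of 52.4% over 32851 promoters. The GC box letters GGGCGG stood 12 times in the Agrn window, 3 on the strand of the gene and 9 on the other, with 1 overlapping pair. They stood 3 times in the Npnt window and were absent from that of Frem2, while 32.7% of all promoters held them. The Agrn window also held the SOX core CTTTGT once, which 16.5% of promoters held. In the Frem2 window there were 2 matches to the CCAAT box (CCAAT, in 33.8% of promoters), 2 to the LEF/TCF core (CTTTGA, in 13.8%) and 1 to the TEAD core (CATTCC, in 12.6%). The TATA box TATAAA (in 12.4% of promoters), the E-box CANNTG (in 66.2%) and the AP-1 motif TGANTCA (in 6.75%), the last 2 of which read the same on both strands, matched none of these windows. Agrn and Npnt each have a second start site in the table, not shown, whose windows hold 1 and 2 E-boxes and 2 and 0 GC boxes. A match is a run of letters and not a measured binding site. Of the 8 genes, 6 had an entry in the promoter table.

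Itga6, which encodes CD49f, followed the gates, at 0.475 ± 0.216 FPKM (SD, n = 3), 5.51 ± 0.979 and 19.9 ± 4.11 from the negative to the high gate. Of the fibroblast markers, 10 of 10 were at 1 FPKM or more in every library, and their sum was 13929 to 17013 FPKM in CD49f-neg, 5633 to 6854 in CD49f-low and 4166 to 6182 in CD49f-high. Markers of other cells moved with the gates. The summed FPKM of 8 melanocyte markers was 426 to 524 in CD49f-low, against 2.63 to 4.05 in CD49f-neg and 8.91 to 17.6 in CD49f-high, and 8 dermal papilla markers summed to 111 to 130.4 in CD49f-low against 17.9 to 26.2 and 15.1 to 25.1. The 10 mural cell markers summed to 748 to 1385 in CD49f-high, against 30.4 to 42.8 in CD49f-neg and 83.9 to 157 in CD49f-low. The 11 endothelial markers summed to 3.30 to 5.20, 9.29 to 11.2 and 15.5 to 35.8 FPKM in the 3 gates, 7 skeletal muscle markers to 1.97 to 3.41, 16.8 to 24.7 and 31.1 to 59.6, and 8 immune markers to 2.26 to 7.36 over all libraries. The muscle sum in CD49f-high was mostly Des, which is also on the mural list. From low to high 4 of 6 tested muscle markers were called lower and 1 higher, beside 10.5% and 5.93% of all rows. Schwann cell markers summed to 2.26 to 4.80 in CD49f-neg and to 44.8 to 61.7 in CD49f-low. CD49f-high replicate 1 stood apart from replicates 2 and 3 of its gate. Its Schwann cell markers summed to 51.9 FPKM against 226 and 277, and its adipocyte markers to 258 against 20.6 and 15.2.

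**Figure D1:**
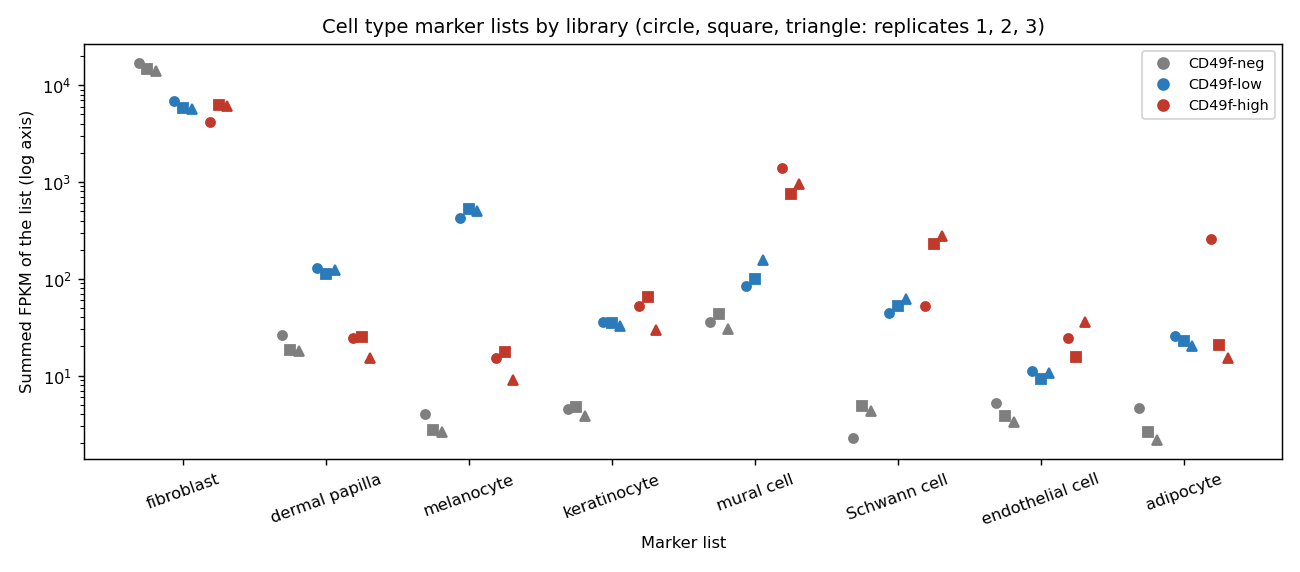
Summed FPKM (log axis) of 8 marker lists in each library, coloured by gate, with a symbol for each replicate. The CD49f-low libraries lead in the melanocyte list (426 to 524), and CD49f-high replicate 1 lies apart from the other CD49f-high libraries in the Schwann cell and adipocyte lists.

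Compared with CD49f-neg, 6 of the 8 genes were higher in CD49f-low (Nid1, Nid2, Agrn, Frem1, Frem2 and Npnt), none was called lower, and Hspg2 and Fras1 did not pass the test. Frem2 and Npnt stand in this count and in those that follow although the filter admitted them through gates where they were high, so the counts give no support beyond the single genes. Of all 20523 rows, 15.4% were called in this comparison, 12.8% higher and 2.62% lower. Between CD49f-high and CD49f-neg, 5 were higher (Nid1, Nid2, Agrn, Frem2 and Npnt) and Frem1 was lower, where 22.1% of all rows were called, 13.9% higher and 8.27% lower. Between CD49f-high and CD49f-low, 3 were higher (Nid2, Agrn and Frem2) and 3 lower (Fras1, Frem1 and Npnt), where 16.4% of all rows were called, 5.93% higher and 10.5% lower. The median difference of the 8 genes was 1.08, 0.74 and 0.12 log2 units in the 3 comparisons, beside 0.21, 0.07 and -0.15 for all rows, and the median of the 8 includes the 2 genes that the filter admitted through single gates. After median-of-ratios scaling the calls over all rows were 1117 higher and 1093 lower in CD49f-low against CD49f-neg, where the deposited FPKM gave 2623 and 537. The same scaling gave 1614 higher and 1331 lower in CD49f-high against CD49f-low, where the deposited FPKM gave 1216 and 2151. Between CD49f-high and CD49f-neg, quantile normalization gave 2186 higher and 2315 lower against 2844 and 1697.

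**Figure D2:**
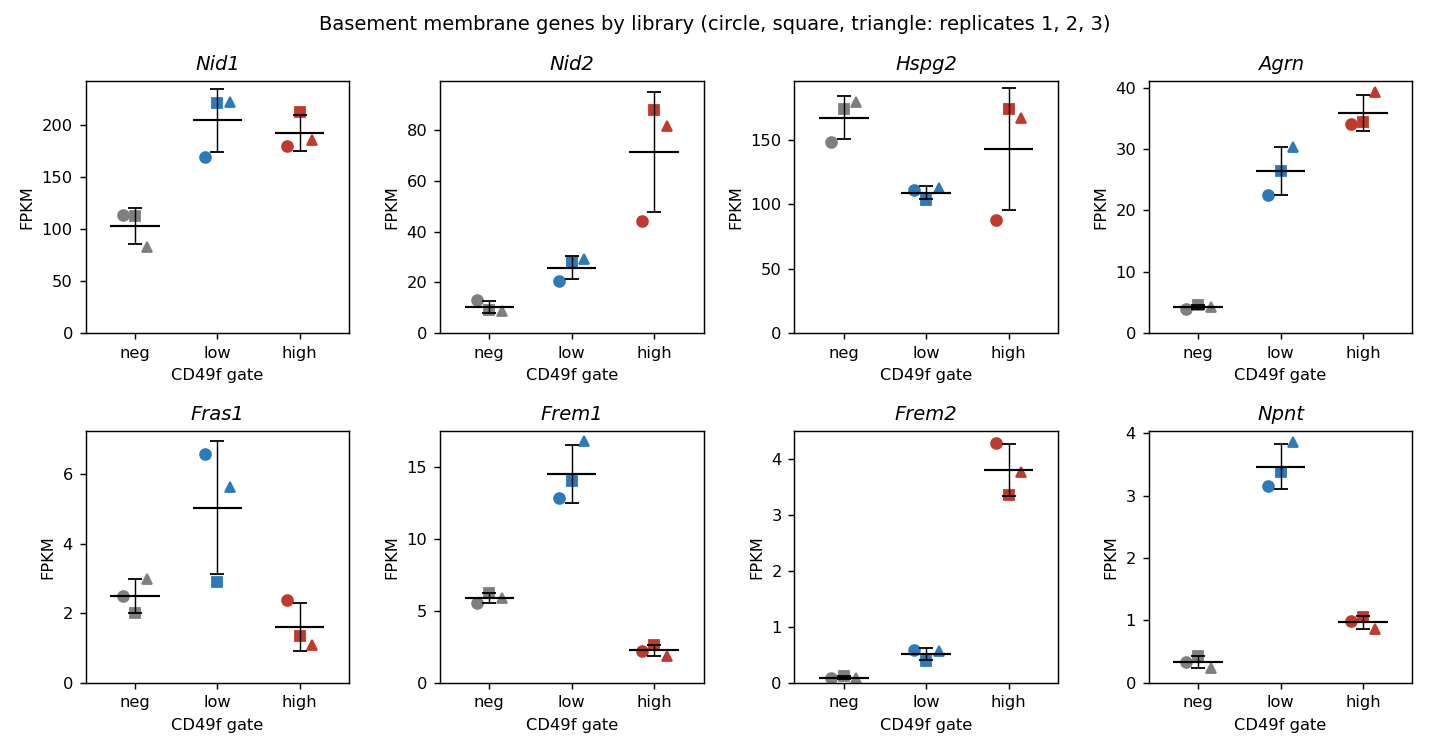
FPKM of the 8 genes in each of the 9 libraries, with the mean (horizontal line) and SD (bar) of each gate. Nid1 and Agrn were high in both positive gates, Nid2 and Frem2 highest in CD49f-high, Frem1 and Npnt highest in CD49f-low, and the CD49f-high libraries of Hspg2 spread from 88.0 to 174.

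**Figure D3:**
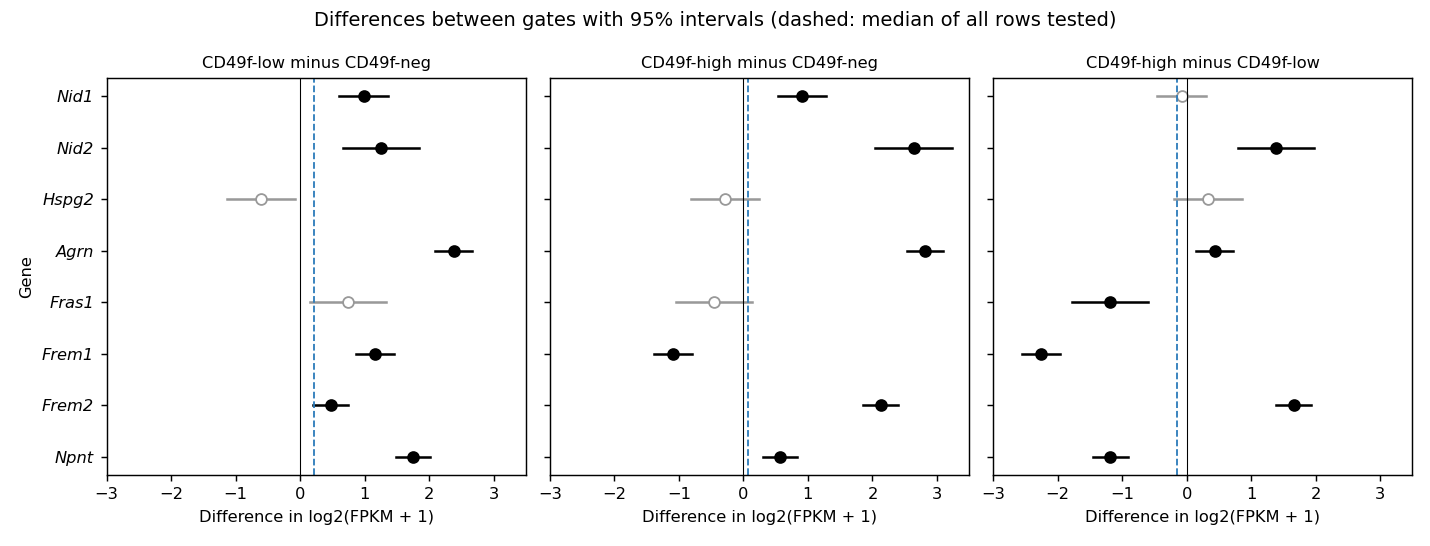
Difference in log2(FPKM + 1) between gates for each gene, with its 95% interval from limma. Filled points passed an adjusted p of 0.05, and the dashed line is the median of all rows tested. Frem1 and Frem2 lie on opposite sides of 0 in both comparisons with CD49f-high.

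The nidogens link laminin to type IV collagen and other basement membrane proteins, and they can stand in for each other in many tissues. Nid1 (chromosome 13, 13437602 to 13512275, plus strand) was measured at 113, 113 and 82.6 FPKM in CD49f-neg, 169, 221 and 223 in CD49f-low and 179.5, 213 and 185 in CD49f-high. All 6 libraries of the positive gates lay above all 3 negative ones, and the low and high gates overlapped. Nid1 rose from CD49f-neg to CD49f-low by 0.99 log2 units (SE 0.17, limma adjusted p = 0.00438) and to CD49f-high by 0.91 (SE 0.17, adjusted p = 0.00384). Between CD49f-high and CD49f-low its difference was -0.08 (95% interval -0.46 to 0.30, adjusted p = 0.779), and it turned to 0.10 under median-of-ratios scaling and to 0.061 when quantiles were matched. Nid2 (chromosome 14, 19751257 to 19811787, plus strand) was less abundant, at 13.1, 9.22 and 8.58 FPKM in CD49f-neg, 20.5, 27.9 and 29.1 in CD49f-low and 44.4, 88.0 and 81.9 in CD49f-high. Its gates did not overlap, and CD49f-high replicate 1 lay well below the other CD49f-high libraries. Nid2 rose by 1.25 log2 units from negative to low (SE 0.26, limma adjusted p = 0.0131), by 1.39 from low to high (SE 0.26, adjusted p = 0.00631) and by 2.64 from negative to high (SE 0.26, adjusted p = 0.000105). Without CD49f-high replicate 1 the rise from low to high was 1.69 (limma adjusted p = 0.00086). The summed mural and endothelial markers were also higher in every CD49f-high library than in the others, and the Schwann cell sum in replicates 2 and 3, and the part of these cells in the Nid2 values was not tested.

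The first of these Nid2 calls was the least firm. It missed the threshold when quantiles were matched (limma adjusted p = 0.0525) and without CD49f-neg replicate 3 (0.0561), CD49f-low replicate 2 (0.0518) or CD49f-low replicate 3 (0.0542). Exons of Nid2 overlap those of the gene Rtraf, listed as 2700060E02Rik, on the opposite strand by up to 437 bases, and the labels do not state whether strand was counted. That gene stood at 9.59 ± 2.27, 11.5 ± 0.758 and 10.3 ± 0.695 FPKM in the 3 gates, with no call in any comparison. An antisense gene, Gm48682, overlaps an exon of Nid1 by 143 bases, and another, Gm42604, one of Fras1 by 159 bases, so reads there are uncertain.

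The balance of the nidogens set the high gate apart. The ratio of Nid2 to Nid1 within a library, which does not depend on scaling between libraries, was 0.116, 0.0819 and 0.104 in CD49f-neg, 0.121, 0.126 and 0.131 in CD49f-low and 0.247, 0.414 and 0.442 in CD49f-high. The ratio was highest in the high gate, which stood clear of the others. The negative and low gates did not overlap but nearly touched, at 0.116 and 0.121, and the ratios were not tested.

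Perlecan and agrin, the heparan sulfate proteoglycans of basement membranes, differed in level and in pattern. Hspg2, the perlecan gene (chromosome 4, 137468769 to 137570630, plus strand), was abundant in every library, at 148, 173 and 179 FPKM in CD49f-neg, 111, 103 and 112 in CD49f-low and 88.0, 174 and 166 in CD49f-high. CD49f-low lay below all negative libraries, while the CD49f-high libraries ran from below the low gate into the range of the negative gate. No comparison of Hspg2 passed the test: the differences were -0.61 from negative to low (95% interval -1.13 to -0.08, limma adjusted p = 0.106), -0.28 from negative to high (-0.81 to 0.24, adjusted p = 0.45) and 0.33 from low to high (-0.20 to 0.85, adjusted p = 0.377). Leaving out CD49f-high replicate 1, the lowest of the 9 libraries for Hspg2, changed the calls in the comparisons with CD49f-low. Between high and negative the sign changed, still without a call. Without that replicate Hspg2 was called lower in CD49f-low than in CD49f-neg (limma adjusted p = 0.00645). This difference stayed at -0.61, as the replicate is in neither gate, and its SE fell from 0.23 to 0.11. Hspg2 was then also called higher in CD49f-high than in CD49f-low (0.64, limma adjusted p = 0.00843). The difference between high and negative was 0.032 (limma adjusted p = 0.895). The fall from negative to low was also called after median-of-ratios scaling (-0.89, limma adjusted p = 0.0477) and in a fit on the 6 libraries of these gates (-0.61, adjusted p = 0.0104). CD49f-high replicate 1 had the fewest Schwann cell and the most adipocyte and mural marker transcripts of its gate, with 1385 FPKM of mural markers against 748 and 955. Its fibroblast markers also had the lowest sum of its gate, at 4166 FPKM against 6182 and 6110. The part of all these cells in the Hspg2 and Nid2 values was not tested.

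Agrn (chromosome 4, 156165290 to 156197488, minus strand), which in muscle organizes the synapse and elsewhere links laminin to dystroglycan, was measured at 3.93, 4.57 and 4.24 FPKM in CD49f-neg, 22.5, 26.4 and 30.4 in CD49f-low and 34.0, 34.4 and 39.3 in CD49f-high. The step lay between the negative gate and the other gates, and no gates overlapped. Against CD49f-neg, the mean FPKM of Agrn was 6.22-fold in CD49f-low and 8.46-fold in CD49f-high. On the log2 scale it rose by 2.38 (SE 0.13, limma adjusted p = 9.74e-06) and 2.81 (SE 0.13, adjusted p = 3.09e-06), and 0.287% and 0.551% of all rows rose by more in the same comparisons. The further difference from low to high was 0.44 (SE 0.13, limma adjusted p = 0.0436), and this call ended in 11 of 17 alternatives. It was lost without any 1 of CD49f-neg replicates 2 and 3, CD49f-low replicates 1 and 2 and all CD49f-high replicates (limma adjusted p from 0.0549 to 0.138). The difference itself ran from 0.33 to 0.54 with a library left out. The ratio of Agrn to Hspg2 was 0.0266, 0.0264 and 0.0236 in CD49f-neg, 0.203, 0.255 and 0.270 in CD49f-low and 0.387, 0.198 and 0.236 in CD49f-high. It was higher in every positive library than in every negative one, and the positive gates overlapped.

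**Figure D4:**
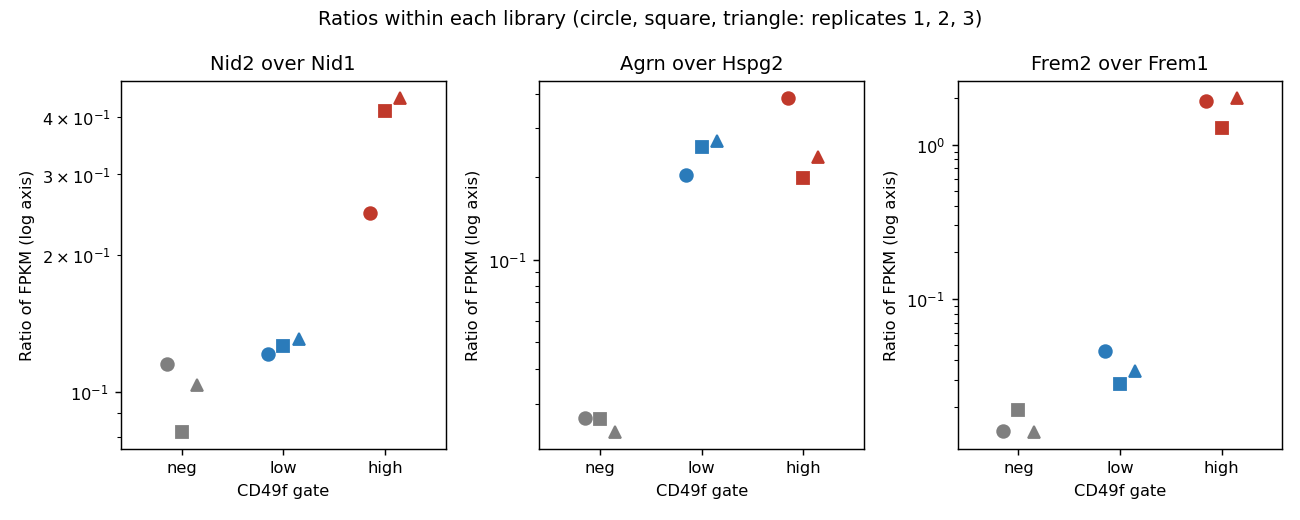
Ratios of FPKM within each library (log axes) for Nid2 over Nid1, Agrn over Hspg2 and Frem2 over Frem1, by gate and replicate. The Frem2 to Frem1 ratio runs from 0.0137 in the negative gate to 2.01 in the high gate.

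The 3 Fras/Frem genes, whose proteins need one another to be held in the basement membrane below the epidermis, did not move together. Frem1 (chromosome 4, 82897920 to 83052339, minus strand), a secreted member known from dermal cells, was measured at 5.54, 6.23 and 5.89 FPKM in CD49f-neg, 12.8, 14.0 and 16.8 in CD49f-low and 2.23, 2.63 and 1.87 in CD49f-high. It was highest in the low gate and lowest in the high gate, with no overlap. Frem1 rose by 1.17 log2 units from negative to low (SE 0.13, limma adjusted p = 0.000395) and fell by 2.26 from low to high (SE 0.13, adjusted p = 1.89e-05), where 0.268% of all rows fell further. From negative to high it fell by 1.09 (SE 0.13, limma adjusted p = 0.000303). These calls of Frem1 held in all 17 alternatives run.

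Frem2 (chromosome 3, 53513938 to 53657355, minus strand), a membrane-bound member known from epidermal cells, followed another order. It was measured at 0.0772, 0.120 and 0.0809 FPKM in CD49f-neg, 0.592, 0.397 and 0.570 in CD49f-low and 4.29, 3.35 and 3.76 in CD49f-high. The gates did not overlap, and the negative libraries lay near 0, where FPKM rest on few fragments. In CD49f-high the mean FPKM was 41.0 times that of the negative gate and 7.31 times that of the low gate. Frem2 rose by 2.13 log2 units from negative to high (SE 0.12, limma adjusted p = 5e-06) and by 1.66 from low to high (SE 0.12, adjusted p = 4.17e-05). Since Frem2 was tested only because it was high in CD49f-high, these p-values depend on the filter. With no filter they were 1.71e-05 and 0.00011. From negative to low Frem2 rose by 0.47 (SE 0.12, limma adjusted p = 0.0292), or by 1.68 with a pseudocount of 0.1 (adjusted p = 0.00255). In this comparison 18.5% of all rows rose by more than 0.47. This smaller call ended under median-of-ratios scaling (limma adjusted p = 0.0587), when quantiles were matched (difference 0.16, adjusted p = 0.521) and without any 1 of the 3 CD49f-neg replicates or CD49f-low replicates 1 or 3 (adjusted p from 0.0565 to 0.0959).

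Most of the tested keratinocyte markers moved in the same direction as Frem2. The summed mural and endothelial markers also rose at each step, with no overlap between gates. The 15 keratinocyte markers lay on 13 rows, 9 of which were tested. Of these 9, 6 rose from negative to low and 9 from negative to high, with Epcam tested only through CD49f-high. From low to high 6 were called higher and 1, Cdh1, lower (-2.16, limma adjusted p = 0.00021). The shares of all rows called higher in these 3 comparisons were 12.8%, 13.9% and 5.93%, and 10.5% were called lower from low to high. The summed FPKM of the keratinocyte list was 3.78 to 4.69 in CD49f-neg, 32.7 to 36.2 in CD49f-low and 29.3 to 64.1 in CD49f-high, so the positive gates overlapped. In CD49f-low much of that sum was Cdh1, which melanocytes also express, at 18.7 ± 2.71 FPKM. The row that holds Krt5 with other keratins ran from 0.144 to 0.269, 1.57 to 1.78 and 5.47 to 12.6 FPKM in the 3 gates. Dsg3 was listed at 0 in CD49f-neg replicate 2 and Lor in CD49f-high replicate 3. Within CD49f-high, the keratinocyte sum was 52.9, 64.1 and 29.3 FPKM in replicates 1, 2 and 3, where Frem2 was 4.29, 3.35 and 3.76. The part of keratinocytes, mural cells or endothelial cells in the Frem2 values was not tested.

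Fras1 (chromosome 5, 96373955 to 96784728, plus strand), the founding membrane-bound member, was measured at 2.50, 2.02 and 3.00 FPKM in CD49f-neg, 6.58, 2.90 and 5.62 in CD49f-low and 2.37, 1.34 and 1.08 in CD49f-high. CD49f-low replicate 2 lay within the negative range, and only the low and high gates did not overlap. Fras1 was lower in CD49f-high than in CD49f-low by 1.19 log2 units (difference -1.19, SE 0.26, limma adjusted p = 0.0133). That call missed the threshold without CD49f-low replicate 1 (limma adjusted p = 0.0505), CD49f-low replicate 3 (0.0563) or CD49f-high replicate 3 (0.0524). The differences from negative to low (0.74, 95% interval 0.15 to 1.33, limma adjusted p = 0.0876) and from negative to high (-0.45, -1.04 to 0.14, adjusted p = 0.268) did not pass the test. The former was called with the replicate block (limma adjusted p = 0.0327) and without CD49f-low replicate 2 (1.02, adjusted p = 0.0255). The rows of Fras1, Frem1 and Frem2 each also cover 1 annotated noncoding RNA on the same strand inside the gene, whose reads could not be separated.

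The make-up of the trio therefore differed between gates. The ratio of Frem2 to Frem1 was 0.0139, 0.0192 and 0.0137 in CD49f-neg, 0.0462, 0.0284 and 0.0340 in CD49f-low and 1.92, 1.27 and 2.01 in CD49f-high. Frem2 exceeded Frem1 in every CD49f-high library and in no other. The ratio of Fras1 to Frem1 was 0.323 to 0.509 in CD49f-neg, 0.207 to 0.513 in CD49f-low and 0.510 to 1.06 in CD49f-high, so the low gate overlapped both others, and the negative and high gates nearly touched. The summed level of the 3 genes was 17.3 to 23.0 FPKM in CD49f-low, above the 8.12 to 8.96 of CD49f-neg and the 6.71 to 8.89 of CD49f-high.

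Npnt (chromosome 3, 132881745 to 132950291, minus strand), which encodes nephronectin, was measured at 0.338, 0.428 and 0.232 FPKM in CD49f-neg, 3.16, 3.38 and 3.86 in CD49f-low and 0.989, 1.06 and 0.857 in CD49f-high. The gates did not overlap, and the low gate stood above the others. In CD49f-low the mean FPKM was 10.4 times that of the negative gate and 3.58 times that of the high gate. Npnt rose by 1.74 log2 units from negative to low (SE 0.12, limma adjusted p = 2.33e-05) and fell by 1.18 from low to high (SE 0.12, adjusted p = 0.000189). From negative to high it rose by 0.56 (SE 0.12, limma adjusted p = 0.00747). With no filter the adjusted p-values of Npnt were 5.66e-05, 0.000499 and 0.0135 in the same order. Melanocyte and dermal papilla markers were also highest in CD49f-low, with 8 of 8 of either list called higher than in CD49f-neg and 8 of 8 called lower in CD49f-high than in CD49f-low. The shares of all rows called in these directions were 12.8% and 10.5%. Of the melanocyte markers, Tyr and Slc45a2 were tested only through CD49f-low, where alone they reached 1 FPKM. In CD49f-neg the melanocyte marker Mlana was listed at 0 in 2 libraries. The part of these cells in the Npnt and Frem1 values was not tested.

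Within a gate, the order of levels from the highest was Hspg2, Nid1, Nid2, Frem1, Agrn, Fras1, Npnt and Frem2 in all 3 CD49f-neg libraries. In CD49f-low, Nid1 stood above Hspg2 in every library, and the neighbours Agrn and Nid2, and Fras1 and Npnt, changed places between libraries. In CD49f-high the order was Nid1, Hspg2, Nid2, Agrn and Frem2 in every library, Frem1 and Fras1 changed places below them, and Npnt was last. Nid1 and Hspg2 made up 91.1% to 92.7% of the summed FPKM of the 8 genes in CD49f-neg, 79.5% to 81.2% in CD49f-low and 73.2% to 75.2% in CD49f-high.

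Over the 9 libraries, the pattern most like each gene, by Pearson's r of log2(FPKM + 1) among 5567 single-symbol rows, is given as a description, since all points share the same gates. Npnt was most like Notum, a Wnt deacylase (r = 0.994), followed by Vgll4 (0.993) and the pigment enzyme gene Dct (0.992). Notum is on the dermal papilla list and Dct on the melanocyte list. Frem1 was most like Mpped2 (0.995), Runx3, a transcription factor (0.990), and Crybg3 (0.987). Frem2 was most like the tetraspanin gene Tspan15 (0.998), the protocadherin gene Pcdh1 (0.995) and Emb (0.995). Agrn was most like Sh3bp5 (0.996), Serpine2, a secreted protease inhibitor (0.994), and Wdfy1 (0.992). Nid2 was most like the ephrin receptor gene Epha2 (0.990) and Plpp2, listed with its older name Ppap2c (0.986). Nid1 was most like Dennd4a (0.985), the phosphatase gene Dusp5 (0.979) and the clock gene Arntl (0.978). Hspg2 reached lower values, with Antxr2 (0.936), Fbxl17 (0.918) and Gfra2 (0.912), and Fras1 was most like Cnot2 (0.966), Ric8b (0.952) and Sf3a1 (0.947).

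Among receptors of these proteins, 12 of 14 were tested, and 4 were called higher and 1 lower from negative to low. The counts were 8 and 1 from negative to high, and 5 and 0 from low to high. Itga6, on whose protein the cells were sorted, was called higher in all 3 comparisons, so its part of these counts follows from the sort. Of all rows, 12.8%, 13.9% and 5.93% were called higher in the same comparisons, and 2.62%, 8.27% and 10.5% lower. The counts of the lists below stand beside the same shares. Itga8, the integrin subunit that binds nephronectin, stood at 3.41 ± 0.744, 10.1 ± 1.52 and 7.16 ± 2.32 FPKM in the 3 gates (n = 3 each), and rose from negative to low by 1.33 log2 units (SE 0.21, limma adjusted p = 0.00269). Itga7, a laminin-binding subunit of muscle and mural cells, stood at 0.464 ± 0.154, 3.74 ± 1.01 and 39.8 ± 10.1 FPKM, and rose at each step, by 1.68 and 3.10 log2 units (limma adjusted p = 0.000713 and 2.97e-05). For Bcam, a receptor of the laminin α5 chain, the rise between the positive gates was 2.24 (limma adjusted p = 0.000135). That of Itgb4, the hemidesmosomal subunit, was 2.29 (limma adjusted p = 0.00303). In CD49f-high it stood at 2.78 FPKM in replicate 1 and at 10.7 and 11.6 in replicates 2 and 3. Itgb4 reached 1 FPKM in that gate alone and was tested only through it, as were Itga2 and, among the laminins, Lama3. The call of Itgb4 also passed with no filter. Dag1, dystroglycan, the receptor of perlecan and agrin, stood at 24.3 ± 6.29, 30.5 ± 6.46 and 46.2 ± 12.1 FPKM and was called from negative to high alone (0.90, limma adjusted p = 0.0261). That call ended in 6 of 17 alternatives, among them those without CD49f-neg replicate 1 (limma adjusted p = 0.0741), CD49f-neg replicate 3 (0.0649), CD49f-high replicate 2 (0.0675) or CD49f-high replicate 3 (0.0835). Lrp4, the agrin receptor of muscle, stood at 4.09 ± 1.03, 5.62 ± 0.443 and 4.13 ± 0.762 FPKM with no call, and its partner kinase Musk was below 1 FPKM in all libraries.

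**Figure D5:**
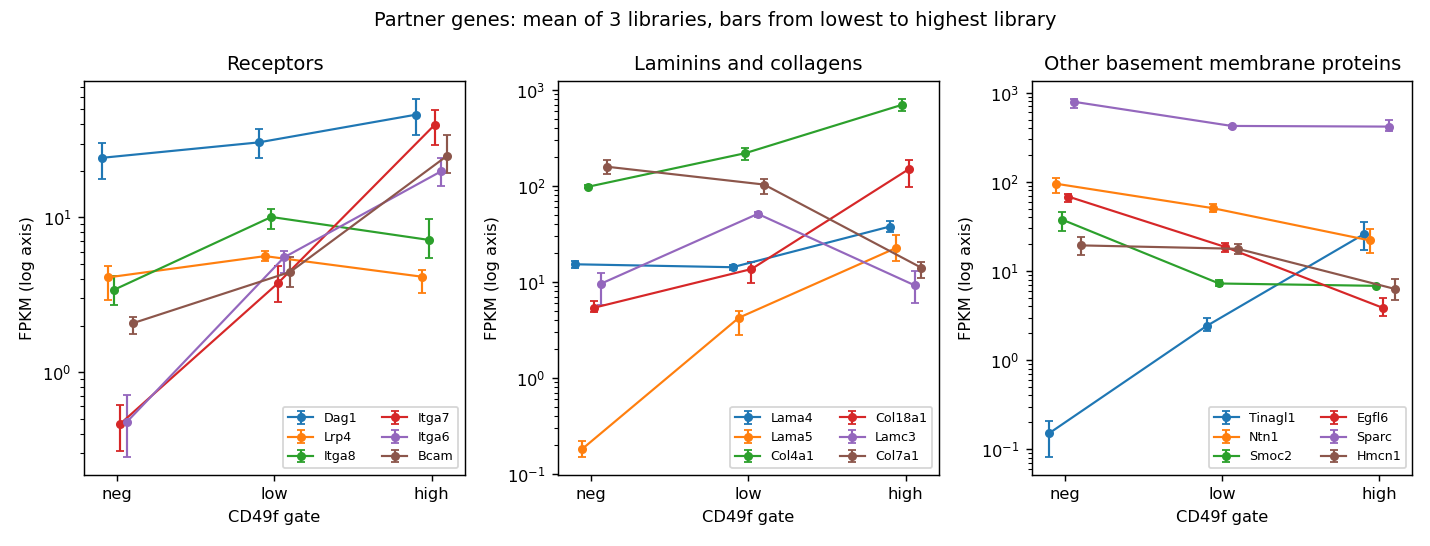
Mean FPKM of 3 libraries per gate (log axes), with bars from the lowest to the highest library, for receptors, laminins and collagens, and other basement membrane proteins. Itga6, Itga7, Lama5, Col4a1, Col18a1 and Tinagl1 rise across the gates, Egfl6 and Ntn1 fall, and Lamc3 peaks in CD49f-low as Npnt and Frem1 do.

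Of the laminin and collagen partners, 16 of 20 were tested, with 8 called higher and 0 lower from negative to low, 10 and 3 from negative to high and 9 and 4 from low to high. Their median difference was 0.56, 1.26 and 0.86 log2 units, beside the 0.21, 0.07 and -0.15 of all rows. Col4a1, a chain of the type IV collagen that nidogens bind, stood at 97.7 ± 2.75, 219 ± 31.1 and 701 ± 102 FPKM and rose at both steps, by 1.14 and 1.68 log2 units (limma adjusted p = 0.00114 and 0.000115). Col18a1, a collagen with heparan sulfate chains, went from 5.36 ± 0.821 through 13.6 ± 3.44 to 149 ± 46.2 FPKM. The row of Lama5, which also covers a microRNA gene, rose by 2.12 and 2.16 log2 units at the 2 steps (limma adjusted p = 0.00035 and 0.00027). Lamc3 was highest in CD49f-low, as Npnt and Frem1 were, at 9.50 ± 3.36, 51.0 ± 3.24 and 9.14 ± 3.61 FPKM. Col7a1, the anchoring fibril collagen below the epidermis, whose row also covers a microRNA gene, fell by 3.41 log2 units between the negative and high gates (limma adjusted p = 4.97e-06), at 158 ± 26.2, 103 ± 18.5 and 14.0 ± 2.72 FPKM.

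Of 15 other basement membrane proteins, 12 were tested, with 3 called higher and 4 lower from negative to low, 2 and 6 from negative to high, and 1 and 6 from low to high. Their median difference was -0.21, -1.03 and -1.11 log2 units. Egfl6, the closest relative of nephronectin, fell at each step, by 1.83 and 2.02 log2 units (limma adjusted p = 9.55e-05 and 6.48e-05), from 68.3 ± 8.14 through 18.5 ± 2.27 to 3.86 ± 0.957 FPKM. It was thus highest in the gate where Npnt was lowest. Smoc2 and Sparc, related calcium-binding matrix proteins, fell from negative to low by 2.21 and 0.89 log2 units (limma adjusted p = 3.91e-05 and 0.00671). Smoc1 went the other way, at 4.06 ± 1.58, 21.8 ± 2.18 and 4.71 ± 5.18 FPKM in the 3 gates. Its differences were 2.22 from negative to low (limma adjusted p = 0.0250) and -2.40 from low to high (adjusted p = 0.0148). Tinagl1 rose at each step, by 1.56 and 2.92 (limma adjusted p = 0.0019 and 5.63e-05). Frem3, the remaining Frem gene, stayed at or below 0.0172 FPKM, and Grip1, which carries Fras1 to the cell surface, averaged 0.0912, 0.329 and 0.432 FPKM, so neither was tested.

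Of 21 genes that build and edit heparan sulfate, the sugar chain of perlecan and agrin, 20 were tested, with 3 called higher and 1 lower from negative to low, 4 and 5 from negative to high, and 1 and 7 from low to high, and their median difference of 0.24, 0.04 and -0.17 log2 units stood beside 0.21, 0.07 and -0.15 for all rows. Sulf2, which removes sulfate groups from the finished chain outside the cell, had the largest fall of the 20 from negative to high, from 87.6 ± 22.6 through 44.3 ± 3.62 to 11.4 ± 2.97 FPKM. It fell by 2.84 log2 units between the negative and high gates (limma adjusted p = 2.57e-05) and fell by 1.90 log2 units from low to high (adjusted p = 0.000456). Hs3st3b1, a sulfotransferase, peaked in CD49f-low at 6.87 ± 0.674 FPKM, against 2.56 ± 0.510 and 3.24 ± 0.258. Hs6st2, another sulfotransferase, rose between the positive gates by 1.04 (limma adjusted p = 0.0129), a call that ended without CD49f-high replicate 3 (adjusted p = 0.0503), and Xylt1, which starts the chain, fell by 0.72 (adjusted p = 0.00563).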

How the data were processed

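The authors deposited 1 table of FPKM values, with 9 columns named as the sample titles, by which libraries were grouped. Tools named in the submitters' processing notes are FastQC, TopHat2 and StringTie, with the build GRCm38. Their versions and strand handling are not given in the sources used here. Per the file headers, rows carry gene identifiers, symbols and coordinates. Whole reads were sought from the spacing of low values of single-exon GENCODE M21 genes, but at the best spacing only 27.7% to 42.7% of values lay within 0.1 of a whole number, where evenly spread values give 20%. Reads were therefore not recovered, the depth is unknown and no count test was run.

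No rescaling was applied before taking log2(FPKM + 1). Limma 3.58.1 in R 4.3.3 fitted gate means to all 9 libraries with 6 residual degrees of freedom. Moderation was by empirical Bayes with a trend on the mean. The method was tested on simulated data whose noise was independent between libraries. That test therefore does not cover the likeness of libraries with the same replicate number, described below. Tables were handled in Python 3.11.15 with pandas 2.3.3. The fits were repeated with each library left out, on the 6 libraries compared, with a replicate block, without the trend, with a pseudocount of 0.1, without a filter or with one of 5 FPKM in 3 libraries, and after quantile normalization or median-of-ratios scaling. Libraries of the same replicate number resembled each other. Deviations from gate means correlated at 0.252 to 0.520 between libraries of the same number and at -0.453 to 0.118 otherwise. Deviations cancel out within a gate of 3, so positive values in the former push the latter down. The labels state no pairing, and the main fit did not include one. The members and lists were chosen with earlier results of these data known. Named partner genes were, per list and comparison, up to 4 called with the smallest adjusted p, of which the text names a part. Dag1, Lrp4, Musk, Frem3, Grip1 and Smoc1 were named after their values were seen. The patterns most like each gene were sought among rows with 1 symbol and a gate mean of at least 5 FPKM. A gene that this search also named for Nid2 is not reported here.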

Additional observations from a re-analysis of the deposited data

How the results depend on the processing

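For the 8 genes, 365 values under alternatives kept their direction and side of the threshold, 25 lost the call, 6 gained one and 3 changed sign. The sign changed for Nid1 between high and low under median-of-ratios scaling (0.10) and with quantiles matched (0.061), and for Hspg2 between high and negative without CD49f-high replicate 1 (range with a library left out -0.45 to 0.032), and none of these was called. The number of genes called lower in CD49f-low than in CD49f-neg was 1 in place of 0 after median-of-ratios scaling and in the fit on 6 libraries, and 0 to 1 with a library left out. With the stricter filter Fras1, Frem2 and Npnt were no longer tested, which left 3 called higher between high and negative and 1 called lower between high and low. Over all rows, the calls in low against negative (3160) were 1358 with the stricter filter, 2044 with quantiles matched, 5806 with the replicate block and 1614 to 3764 with a library left out (CD49f-neg replicate 3 gave 1614, and CD49f-low replicates 2 and 3 gave 1726 and 1681). In high against negative (4541) they were 1911 with the stricter filter, and in high against low (3367) 1323 with it, 5309 with the replicate block and 2201 to 3585 with a library left out (2201 without CD49f-low replicate 3). The block changed no call of the 8 genes but that of Fras1 in low against negative, and it called Lrp4 higher in low than in negative (adjusted p = 0.0340) and lower in high than in low (adjusted p = 0.0415) in limma's test. Of the partner genes, Lrp4 turned from 0.022 in high against negative to -0.064 under median-of-ratios scaling and -0.11 with quantiles matched, and ran from -0.16 to 0.15 with a library left out, negative without CD49f-neg replicate 1 or CD49f-high replicates 2 or 3. The other partner values that changed were losses of a call with the direction kept. The counts of partner lists moved by over 1.5 times in 58 cases and by less in 350, and heparan sulfate genes called lower from low to high went from 7 to 3 or 4 in 6 fits. The partner alternatives were added after seeing the data. Leaving out a library leaves 2 in its gate, whose spread is then borrowed from the others. Unless stated, the cause of a change was not tested.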
